A study of Mus musculus with 31 samples.

Results

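The enzymes that make nucleotides and the one-carbon units that feed them were followed as 39 named genes in mouse liver. Each was found by its symbol in both deposited expression tables, among 41549 genes in the table of 5-month livers and 36333 in the table of old livers and adenomas. They fall into 5 genes of de novo pyrimidine synthesis, 11 of de novo purine synthesis, 8 of deoxynucleotide synthesis and nucleotide phosphorylation, 3 of serine synthesis, 7 of folate one-carbon metabolism and 5 of salvage.

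Nucleotides are built anew from amino acids, carbon dioxide and a ribose phosphate, or recovered from free bases and nucleosides by salvage. Serine gives up a carbon to folate, and the folate-bound carbon is then used to close the purine ring and to turn dUMP into dTMP. Ribonucleotide reductase makes the deoxynucleotides needed when DNA is copied. Many of these genes are known targets of the transcription factor Myc, which drives growth. MondoA and ChREBP, which respond to glucose, act on DNA together with Mlx. Adult liver divides little, exports nucleosides and breaks down folate-bound carbon.

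RNA from 31 livers or tumors was sequenced after poly(A) enrichment. The 5-month set, all fasted for 14 h, held 5 libraries with both Myc and Mlx deleted (DKO, all male), 4 with Mlx deleted (MlxKO, all male), 6 with Myc deleted (MycKO, 4 male and 2 female) and 6 wild-type (WT, 4 male and 2 female). The DKO, MlxKO and MycKO mice carried the Gt(ROSA)26Sor cre/ERT2 allele, active throughout the body, with Mycloxp/loxp, Mlxloxp/loxp or both. The second set, not fasted, held 5 liver adenomas labelled MLXKO from mice of 14 to 17 months that carried Alb_CreERT2, named for the albumin promoter of hepatocytes, with Mlxloxp/loxp (4 female, 1 male), and 5 WT livers of 17 months (old WT, 2 female and 3 male). Tamoxifen (75 mg/kg) had been injected on each of 5 days at an age of 28 days in all groups, WT included. The WT strain is given as C57/B6 with no Cre, so loss of the floxed genes cannot be told apart from Cre or strain wherever WT is used. The labels do not say that libraries came from separate animals, so p-values here reflect differences among these libraries, part of which may be technical. In whole tissue, fewer cells of a type and less RNA per cell cannot be told apart.

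Total counts were 18226467 to 28476797 per 5-month library, 34590164 to 37087490 per adenoma and 16036626 to 18690029 per old WT liver. Of counts between 1 and 19, 81.0 to 83.1% were even numbers in the adenomas, against 42.3 to 44.1% in old WT. Myc stood at 0.492 to 2.41 CPM (counts scaled to a common library size, with TMM factors) in DKO, 6.80 to 14.3 CPM in MlxKO, 0.720 to 2.61 CPM in MycKO and 3.61 to 22.2 CPM in WT. Mlx stood at 14.7 to 18.6 CPM in DKO, 15.7 to 20.8 CPM in MlxKO, 21.5 to 28.3 CPM in MycKO and 24.5 to 29.0 CPM in WT. Mlx reads thus remained in every library with Mlx deleted. In the old set Mlx stood at 19.9 to 29.9 CPM in the adenomas and 31.8 to 43.8 CPM in old WT. The male label of adenoma 5 went against its sex-linked counts in earlier work on these data, and those counts are not shown here. WT 2, WT 5 and MycKO 5 had been doubted in earlier work on these data and were left out in 1 alternative.

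In 5-month WT liver the authors' TPM (a level per transcript length, scaled to a common total) ordered the members over a wide range. Aldh1l1, which oxidises folate-bound formyl groups in the cytosol, led with 435 TPM ± 128 (SD, n = 6). Nme2, a nucleoside diphosphate kinase, followed with 291 TPM ± 72.3, and the thymidine phosphorylase Tymp had 185 TPM ± 45.8. The mitochondrial serine hydroxymethyltransferase Shmt2 (133 TPM ± 16.5) and the purine enzyme Paics (131 TPM ± 20.9) came next and did not differ beyond their spread.

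At the low end stood the serine synthesis enzymes Phgdh, with 0.238 TPM ± 0.191, and Psat1, with 0.188 TPM ± 0.0940. Aldh1l2, a mitochondrial relative of Aldh1l1, had 0.0349 TPM ± 0.0386. The deaminase Dctd had 0.0207 TPM ± 0.0254. Cad, which carries out the opening steps of pyrimidine synthesis, had 2.11 TPM ± 0.594, and Ppat, which commits ribose phosphate to purines, had 7.09 TPM ± 1.87. Of the folate genes 4 (Aldh1l1, Shmt2, Mthfd1 and Shmt1) were among the 8 highest members, while their mitochondrial partners Mthfd1l (1.55 TPM ± 1.36) and Mthfd2 (0.477 TPM ± 0.288) were low. Across WT libraries the CPM of Mthfd1 varied least (coefficient of variation 6.70%), and Mthfd1l (78.9%), Rrm2 (68.3%) and Tk1 (67.7%) varied most among the members that could be tested.

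**Figure D1:**
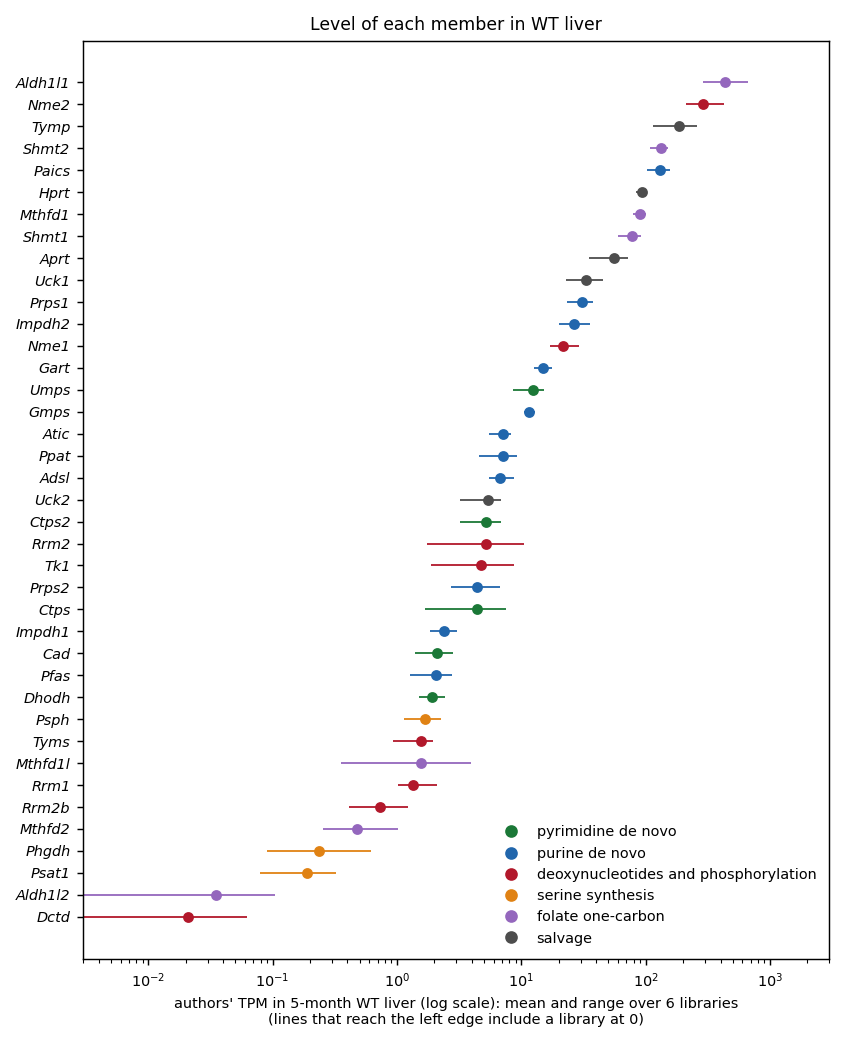
Level of each of the 39 genes in 5-month WT liver, as the authors' TPM on a log axis; points are means and lines run from the lowest to the highest of 6 libraries, coloured by role. Aldh1l1 leads at 435 TPM and Dctd is last at 0.0207 TPM.

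In DKO against WT 10 members were lower and 1 was higher of the 36 that had enough reads to be tested. Phgdh (at most 12 counts in any 5-month library), Aldh1l2 (at most 16) and Dctd (at most 3) were not tested. A member was called changed at an adjusted p under 0.05 in edgeR's quasi-likelihood test, Benjamini-Hochberg adjusted over all 13397 genes. In DKO against WT 18.5% of all genes were called, 10.9% as lower and 7.58% as higher, against 30.6% of the members tested, 27.8% as lower. The median log2 fold change was -0.28 over the members and -0.02 over all genes. By role, 5 of 7 tested deoxynucleotide and phosphorylation enzymes were lower, 2 of 11 in purine synthesis, 1 of 5 in pyrimidine synthesis, 1 of 6 in folate metabolism, 0 of 2 in serine synthesis and 1 of 5 in salvage; differences between roles were not tested.

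Rrm2, the S-phase subunit of ribonucleotide reductase (ENSMUSG00000020649, chromosome 12, 24708241 to 24714146, plus strand, GRCm38.p6), had 1.44, 1.20, 0.880, 1.23 and 0.930 CPM in DKO, against 2.10 CPM at the lowest, 5.96 at the median and 13.0 at the highest in WT. Every DKO library was below every WT library. The log2 fold change of Rrm2 was -1.94 ± 0.37 (SE), a 3.83-fold difference in the fit with its sex term (adjusted p = 0.0022, edgeR). The WT females had 11.3 and 13.0 CPM and the WT males 2.10 to 6.91 CPM, so that the DKO males were also below every WT male. The other reductase subunits did not share this: Rrm1 had a log2 fold change of 0.24 ± 0.22 (adjusted p = 0.45, edgeR) and Rrm2b, the subunit used outside S phase, 0.28 ± 0.22 (adjusted p = 0.37, edgeR).

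Tk1, the thymidine kinase that recovers thymidine in dividing cells, had 5.98, 10.3, 5.80, 2.50 and 5.47 CPM in DKO, against 4.81 CPM at the lowest, 8.82 at the median and 23.8 at the highest in WT. The groups overlapped, and the high WT values were those of WT 2 and WT 5. The WT females had 4.81 and 5.19 CPM, within the range of the DKO males, and the WT males 6.10 to 23.8 CPM. The fitted log2 fold change of Tk1 was -1.29 ± 0.42 (adjusted p = 0.040, edgeR), and without WT 2, WT 5 and MycKO 5 it was no longer called (adjusted p = 0.33). Tk1 overlaps Afmid and Gm20708 on the opposite strand, and reads were not known to be counted by strand. It lies 16.7 Mb from Mlx on chromosome 11, so sequence carried along with the floxed allele cannot be told apart from loss of Mlx. Tyms, the thymidylate synthase that makes dTMP with folate-bound carbon, averaged 2.74 CPM in DKO (2.09 to 3.12 CPM, n = 5) and 4.41 CPM in WT (2.74 to 5.17 CPM, n = 6). Its log2 fold change was -0.60 ± 0.21 (adjusted p = 0.048, edgeR), and WT 1 was the WT library that fell among the DKO values. The call of Tyms ended when any 1 of 10 of these 11 libraries was left out, all but WT 1 (adjusted p = 0.053 to 0.12), and that of Tk1 without DKO 1, 3, 4 or 5, or WT 2, 4 or 5 (adjusted p = 0.050 to 0.14).

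The nucleoside diphosphate kinases Nme1 and Nme2, which pass phosphate from ATP to other nucleoside diphosphates, also fell. Nme2 had 102, 114, 92.3, 69.1 and 82.7 CPM in DKO, against 101 CPM at the lowest, 150.4 at the median and 259.9 at the highest in WT (log2 fold change -0.92 ± 0.22, adjusted p = 0.0083, edgeR). Nme1 had 15.9, 22.7, 25.3, 16.9 and 25.2 CPM in DKO, against 23.4 CPM at the lowest, 30.8 at the median and 50.9 at the highest in WT (log2 fold change -0.77 ± 0.23, adjusted p = 0.029, edgeR). For Nme2 DKO 1 and DKO 2 were above the lowest WT library, WT 6. For Nme1 DKO 3 and DKO 5 were above both WT 5 and WT 6. Both overlap the readthrough gene Gm20390 on the same strand, to which reads could have been split, and Gm20390 was itself lower (log2 fold change -1.63 ± 0.49, adjusted p = 0.028, edgeR). Summed into 1 feature, the 3 had a log2 fold change of -0.96 ± 0.24 (adjusted p = 0.010, edgeR). Nme1 and Nme2 lie 7.12 and 7.13 Mb from Mlx on chromosome 11, so sequence carried along with the floxed allele cannot be told apart from loss of Mlx. The call of Nme1 ended without DKO 1, DKO 4 or WT 2 (adjusted p = 0.072 to 0.12), and that of Nme2 without WT 2, WT 5 and MycKO 5 together (adjusted p = 0.057).

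In pyrimidine synthesis Umps, which makes UMP from orotate, was the member with the smallest p (ENSMUSG00000022814, chromosome 16, 33954782 to 33967038, minus strand). It had 11.0, 8.97, 10.6, 11.3 and 9.68 CPM in DKO, against 14.3 CPM at the lowest, 21.1 at the median and 25.9 at the highest in WT. The groups did not overlap, and Umps fell with a log2 fold change of -0.80 ± 0.14 (adjusted p = 0.0012, edgeR). Such a lower CPM in every DKO library was seen in 5 members (Rrm2, Umps, Impdh2, Atic and Impdh1), against 5.21% of all genes. The reverse was seen in 1 member, against 4.72%. Cad did not follow: it averaged 11.4 CPM in DKO (5.51 to 17.8 CPM) and 7.96 CPM in WT (5.61 to 11.0 CPM), with a log2 fold change of 0.73 ± 0.29 (adjusted p = 0.084, edgeR).

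In purine synthesis 10 of 11 folds were below 0, where 51.9% of all genes were, and 2 were called. The members were measured in the same libraries, so their signs are not separate evidence. Impdh2, which commits IMP to guanine nucleotides (ENSMUSG00000062867, chromosome 9, 108560286 to 108565584, plus strand), had 20.0, 22.1, 24.6, 22.7 and 19.3 CPM in DKO, against 25.4 CPM at the lowest, 36.5 at the median and 53.5 at the highest in WT. Atic, which closes the purine ring (ENSMUSG00000026192, chromosome 1, 71557150 to 71579631, plus strand), had 19.6, 18.4, 20.1, 22.3 and 16.2 CPM in DKO, against 22.5 CPM at the lowest, 26.2 at the median and 32.1 at the highest in WT. In CPM neither gene overlapped between the groups. In the authors' TPM both did. Impdh2 had 21.1 TPM in DKO 3 and 20.2 TPM in WT 6, and Atic had 6.74 TPM in DKO 4 and 5.47 TPM in WT 2. The log2 fold change was -0.73 ± 0.15 for Impdh2 (adjusted p = 0.0035, edgeR) and -0.33 ± 0.10 for Atic (adjusted p = 0.032, edgeR). Impdh1, the other isoform, also did not overlap in CPM (1.86 to 2.64 CPM in DKO, 2.90 to 4.42 CPM in WT). It did in TPM, with 2.12 TPM in DKO 3 and 1.83 TPM in WT 2. Impdh1 missed the threshold (log2 fold change -0.53 ± 0.22, adjusted p = 0.098, edgeR). Ppat averaged 13.1 CPM in DKO (11.9 to 16.0 CPM) and 14.3 CPM in WT (9.96 to 17.7 CPM), with an adjusted p of 0.40 in edgeR; Ppat and Paics overlap by 272 bases on opposite strands. The call of Atic ended without DKO 1, DKO 2, DKO 5 or WT 1 (adjusted p = 0.056 to 0.086).

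All 6 folate genes tested had folds below 0 (51.9% of all genes did), and Mthfd1 was called. Mthfd1, the cytosolic enzyme that interconverts the folate-bound carbons used for purines and dTMP, had 142, 178, 146, 128 and 150.1 CPM in DKO, against 171 CPM at the lowest, 181 at the median and 200.3 at the highest in WT. DKO 2 was the DKO library that reached the WT range in CPM, and in the authors' TPM DKO 1, 2 and 3 did. Its log2 fold change was -0.34 ± 0.11 (adjusted p = 0.046, edgeR), a call that ended without DKO 1, 3, 4 or 5, or WT 2, 3, 4 or 5 (adjusted p = 0.056 to 0.12). Shmt2 averaged 155 CPM in DKO (136 to 191 CPM) and 192 CPM in WT (151 to 229 CPM), and was not called (adjusted p = 0.13, edgeR). Mthfd2 averaged 0.619 CPM in DKO (0.392 to 0.821 CPM) and 0.748 CPM in WT (0.428 to 1.46 CPM), also not called (adjusted p = 0.72, edgeR). Phgdh, below the limit for testing, stood at 0 to 0.130 CPM in DKO and 0.111 to 0.627 CPM in WT.

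The salvage enzymes moved in both directions. Hprt, which recovers hypoxanthine and guanine, had 76.2, 78.9, 80.8, 77.9 and 84.9 CPM in DKO, against 50.1 CPM at the lowest, 53.6 at the median and 62.6 at the highest in WT. It was the member that rose, with every DKO library above every WT library (log2 fold change 0.39 ± 0.12, adjusted p = 0.034, edgeR). Aprt, which recovers adenine, had 25.5, 28.2, 30.3, 31.2 and 24.0 CPM in DKO, against 23.3 CPM at the lowest, 48.2 at the median and 56.5 at the highest in WT. WT 5 and WT 6 were as low as the DKO libraries, and the log2 fold change of Aprt was -0.66 ± 0.23 (adjusted p = 0.048, edgeR). The call of Hprt ended without any 1 of the 5 DKO libraries or WT 2, 5 or 6 (adjusted p = 0.050 to 0.073), and that of Aprt without any 1 of the 5 DKO libraries or WT 1, 2, 3 or 4 (adjusted p = 0.060 to 0.13).

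The 25 members not called had log2 fold changes from -0.53 (Impdh1) to 0.73 (Cad). Umps, Rrm2 and Impdh2 were called under each of 20 other settings and left-out libraries. The number of members called was 4 to 7 without DKO 1, 2, 3, 4 or 5 or WT 2, 4 or 5, each left out singly, and 6 in males alone. Markers of other cells moved in the same libraries: the summed level of 6 Kupffer cell and macrophage markers was 72.9 to 145 CPM in DKO and 93.0 to 292 CPM in WT, with 3 of 6 called lower, and 6 cholangiocyte markers summed to 38.2 to 106 CPM in DKO and 28.1 to 62.3 CPM in WT, with 0 of 6 called (3 at an unadjusted p under 0.05). The 6 hepatocyte markers summed to 66900 to 94500 CPM in DKO and 72100 to 132000 CPM in WT, with 2 of 6 called lower. The 8 cycling-cell markers summed to 23.0 to 27.3 CPM in DKO and 20.9 to 29.7 CPM in WT, with 0 of the 6 tested called (1 at an unadjusted p under 0.05). Of the other lists, 1 of 6 T and NK cell markers was called higher and 1 lower, 1 of 4 B cell markers lower, 1 of 6 sinusoidal endothelial markers higher and 2 of 6 stellate cell markers higher. No marker was at 0 throughout a group, and the part of these cells in the result was not tested.

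**Figure D2:**
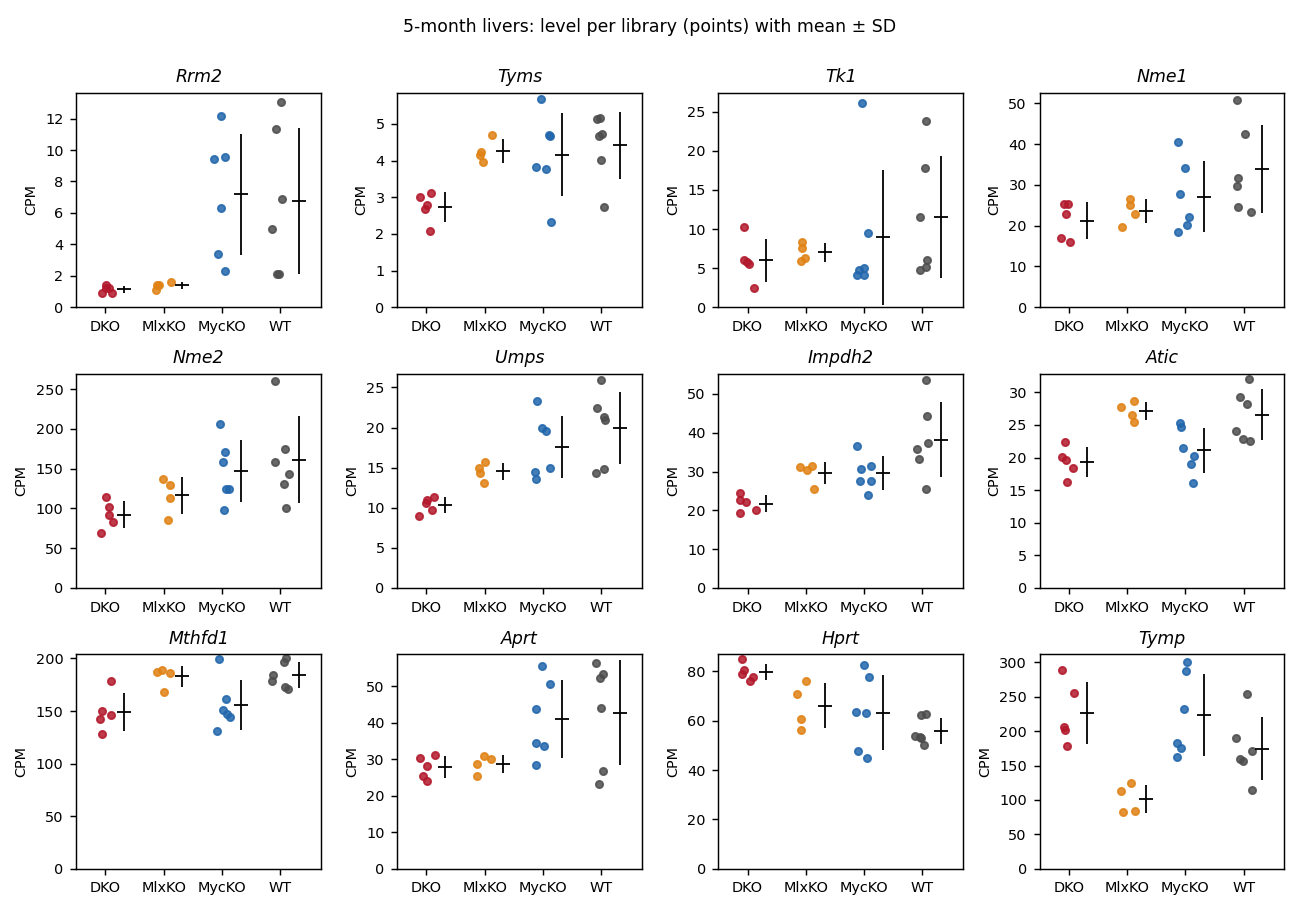
CPM of 12 genes in each 5-month library (points, grouped as DKO, MlxKO, MycKO and WT), with the mean and SD to the right of the points. Rrm2 is below 2 CPM in every DKO and MlxKO library, and Hprt is above 76 CPM in every DKO library.

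Because Myc, and Mlx with its partners, are known to bind E-box DNA, the promoters of the members were searched for the palindromic E-box CACGTG, which reads the same on both strands. RefSeq promoters (GRCm38.p6, 250 bases before to 50 after each start) matched 35 of the 39 members by symbol. The motif stood in 5 of them (14.3%), against 8.09% of the 27025 genes in the promoter table, whether tested here or not. In DKO against WT 4 of these 5 (Impdh2, Atic, Tyms and Nme1) were called lower, while of 28 matched and tested members without the motif 6 were called lower and 1 higher. The share called lower among all tested genes with the motif was not worked out, so 4 of 5 has no background here. The calls of Atic, Tyms and Nme1 each ended when some single libraries were left out. In the other comparisons fewer of the 5 were called. In DKO against MycKO 0 of the 5 and 3 of the 28 were called lower, in MlxKO against WT 0 and 2. In MycKO against WT 0 of both were called in edgeR (4 members, 2 of them among the 5, had an unadjusted p under 0.05). In DKO against MlxKO 0 of both were called, and in the adenomas 1 of the 5 and 6 of 29 were lower. All 5 folds were below 0 in DKO against WT, MycKO and MlxKO, in MycKO against WT and in the adenomas. Of those without the motif 20, 20, 21 and 17 of 28 and 14 of 29 were. In MlxKO against WT 3 of the 5 and 18 of the 28 were. The match is a description of the letters and shows no binding. The starts in the promoter table need not be the outermost 5′ end of a gene. Relative to that end in the annotation of either expression table, the motif lay 40 bases inside Impdh2 and, at 2 places, 231 and 467 bases inside Nme1. For Atic, Paics and Tyms the motif began before it (1 base in Atic, where it crossed that end), and the 250 bases before the RefSeq start are shown, 5′ to 3′ on the gene's strand, with the motif in capitals: chr1:71556906-71557155 (plus) for Atic, chr5:76951052-76951301 (plus) for Paics and chr5:30073626-30073875 (minus) for Tyms.
Atic: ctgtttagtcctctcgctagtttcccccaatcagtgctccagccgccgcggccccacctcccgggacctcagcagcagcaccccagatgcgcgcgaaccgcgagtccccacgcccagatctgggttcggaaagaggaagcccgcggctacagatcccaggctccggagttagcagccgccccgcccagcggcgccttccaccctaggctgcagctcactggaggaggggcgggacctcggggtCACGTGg
Paics: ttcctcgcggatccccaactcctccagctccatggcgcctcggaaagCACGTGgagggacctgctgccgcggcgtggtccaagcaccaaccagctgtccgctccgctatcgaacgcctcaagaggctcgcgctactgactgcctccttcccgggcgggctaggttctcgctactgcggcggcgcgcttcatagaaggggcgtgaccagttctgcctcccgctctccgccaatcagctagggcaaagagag
Tyms: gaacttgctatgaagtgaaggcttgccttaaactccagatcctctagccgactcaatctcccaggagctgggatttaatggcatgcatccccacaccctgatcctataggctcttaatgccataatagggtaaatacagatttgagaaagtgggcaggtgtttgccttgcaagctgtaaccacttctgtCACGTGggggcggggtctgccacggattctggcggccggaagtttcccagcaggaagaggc
The motif began 7 bases before the RefSeq start in Atic, 203 in Paics and 61 in Tyms.

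In MlxKO against WT Rrm2 and Tymp were lower, 2 of 36 members (1.69% of all genes were called, 1.06% as lower). Rrm2 had 1.61, 1.40, 1.38 and 1.12 CPM in MlxKO, against 2.10 CPM at the lowest, 5.96 at the median and 13.0 at the highest in WT, with no overlap (1 member, against 2.94% of all genes; 0 members were higher without overlap, against 2.81%). The fit put Rrm2 lower (log2 fold change -1.65 ± 0.39, adjusted p = 0.038, edgeR). Tymp, which splits thymidine into thymine and a sugar phosphate, had 84.3, 83.0, 113 and 125 CPM in MlxKO, against 114 CPM at the lowest, 166 at the median and 254 at the highest in WT (log2 fold change -0.88 ± 0.22, adjusted p = 0.043, edgeR). MlxKO 4 was the library that reached the WT range. Tymp shares 1916 bases on the same strand with Sco2, whose log2 fold change was -0.55 ± 0.27 (adjusted p = 0.23, edgeR).

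Both calls were near the threshold, while the log2 fold change over all alternatives stayed between -2.28 and -1.38 for Rrm2 and between -0.99 and -0.74 for Tymp. Rrm2 was not called without MlxKO 1, 2, 3 or 4 or WT 1, 2 or 3 (adjusted p = 0.050 to 0.12), nor Tymp without MlxKO 1, 2, 3 or 4 or WT 1, 2, 3 or 5 (adjusted p = 0.055 to 0.13). In males alone the adjusted p was 0.10 for Rrm2 and 0.069 for Tymp. Without WT 6 the number of members called was 5. Cad, Impdh2 and Tyms averaged 13.0 CPM (8.65 to 16.2), 29.6 CPM (25.5 to 31.4) and 4.26 CPM (3.95 to 4.70) in MlxKO, with adjusted p of 0.10, 0.30 and 0.94 against WT in edgeR. Ppat, Shmt2 and Mthfd2 averaged 14.6 CPM (10.7 to 20.1), 170.2 CPM (162 to 173) and 1.08 CPM (0.374 to 2.29) in MlxKO, with adjusted p of 0.89, 0.56 and 0.47. Phgdh was at 0 to 0.190 CPM. Kupffer cell and macrophage markers summed to 103 to 170 CPM in MlxKO and 93.0 to 292 CPM in WT, with 0 of 6 called in edgeR (4 at an unadjusted p under 0.05), and their part in the result was not tested.

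In MycKO against WT no member passed this test. Of 36, 0 were called in edgeR, 0 in DESeq2 and 0 in limma-voom, where 12 genes in all (0.0896%) were called in edgeR, and 4 had an unadjusted p under 0.05 (7.67% of all genes did). These 4 were lower in MycKO, against 3.65% of all genes. At the adjusted threshold 0.0597% of all genes were lower and 0.0299% higher. Atic had a log2 fold change of -0.33 ± 0.09 (adjusted p = 0.27), Impdh2 of -0.36 ± 0.13 (adjusted p = 0.49), Shmt2 of -0.29 ± 0.12 (adjusted p = 0.56) and Mthfd1 of -0.25 ± 0.10 (adjusted p = 0.57), all in edgeR. Atic had 16.1 CPM at the lowest, 20.9 at the median and 25.2 at the highest in MycKO, against 22.5, 26.2 and 32.1 CPM in WT, and the groups overlapped. Of the 36 folds 25 were below 0 (49.8% of all genes were), with a median of -0.12, against 0.00 over all genes.

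The levels of the best-known enzymes in MycKO lay within or near the WT range. Rrm2 averaged 7.19 CPM (2.29 to 12.2), and its females had 9.57 and 12.2 CPM, above the median of the males at 4.84 CPM. Cad averaged 9.50 CPM (3.96 to 15.9), Ppat 11.5 CPM (8.15 to 15.8) and Impdh2 29.7 CPM (24.0 to 36.6). Tyms averaged 4.16 CPM (2.31 to 5.67), Shmt2 156 CPM (141 to 192), Mthfd2 0.585 CPM (0.286 to 0.730) and Phgdh 0.216 CPM (0.135 to 0.326).

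Set against MycKO, which differs from DKO by the Mlx alleles and also holds 2 females among 6 libraries, DKO had lower Rrm2, Umps and Nme2. The MycKO males had 2.29 to 9.41 CPM of Rrm2 and 13.6 to 19.9 CPM of Umps, above every DKO library. The comparison shares the DKO libraries with that against WT. These were 3 of 36 members lower and 0 higher, against 11.9% of all genes called, 7.52% as lower and 4.36% as higher, so the share lower was near the background. Rrm2 stood at 0.880 to 1.44 CPM in DKO, against 2.29 CPM at the lowest, 7.86 at the median and 12.2 at the highest in MycKO (log2 fold change -2.14 ± 0.37, adjusted p = 0.0017, edgeR). Umps stood at 8.97 to 11.3 CPM in DKO, against 13.6, 17.2 and 23.3 CPM in MycKO (log2 fold change -0.62 ± 0.14, adjusted p = 0.0090, edgeR). These 2 did not overlap (6.18% of all genes were lower without overlap and 4.99% higher), and both were called under each of 20 alternatives. Nme2 overlapped, with 69.1 to 114 CPM in DKO against 98.1, 141 and 206 CPM in MycKO (log2 fold change -0.77 ± 0.22, adjusted p = 0.027, edgeR), and its call ended without DKO 3, 4 or 5 or MycKO 2 or 5 (adjusted p = 0.051 to 0.075). The readthrough gene Gm20390, which overlaps Nme2, was also lower (log2 fold change -1.87 ± 0.49, adjusted p = 0.018, edgeR). Nme2 lies 7.13 Mb from Mlx, so sequence carried along with the floxed allele cannot be told apart from loss of Mlx. Kupffer cell and macrophage markers summed to 72.9 to 145 CPM in DKO and 194 to 332 CPM in MycKO, with 4 of 6 called lower. T and NK cell markers summed to 1.04 to 3.11 CPM in DKO and 3.49 to 6.29 CPM in MycKO, with 2 of 6 called lower and all 6 folds below 0. The part of these cells in the result was not tested. The adjusted p of Impdh2 was 0.10, of Tyms 0.10, of Cad 0.23, of Ppat 0.80, of Shmt2 0.95 and of Mthfd2 0.92 (edgeR).

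Against MlxKO, DKO had no member called in edgeR, where 5 genes in all (0.0373%) were called, 0.0299% as lower and 0.00746% as higher, while 9 members had an unadjusted p under 0.05 (6.02% of all genes did), 7 of them lower (3.64%), DESeq2 called 2 and limma-voom 1. Of 36 folds 29 were below 0 (50.2% of all genes were), with a median of -0.22, against 0.00 over all genes. In CPM 6 members were lower in every DKO library than in every MlxKO library (2.62% of all genes were). These were Atic, Umps, Tyms, Impdh2, Gart and Impdh1. Gart was barely apart, with 34.00 CPM in DKO 2 and 34.16 CPM in MlxKO 2. In the authors' TPM Gart overlapped, with 16.7 TPM in DKO 1 and 16.2 TPM in MlxKO 4. Atic stood at 16.2 to 22.3 CPM in DKO and 25.5 to 28.6 CPM in MlxKO (log2 fold change -0.49 ± 0.11, adjusted p = 0.13, edgeR). Tyms stood at 2.09 to 3.12 CPM in DKO and 3.95 to 4.70 CPM in MlxKO (log2 fold change -0.64 ± 0.21, adjusted p = 0.55, edgeR). Tymp and Hprt were higher without overlap (1.89% of all genes were), Tymp with 179 to 288 CPM in DKO and 83.0 to 125 CPM in MlxKO (log2 fold change 1.16 ± 0.22, adjusted p = 0.064, edgeR). Hprt was barely apart, with 76.24 CPM in DKO 1 and 76.23 CPM in MlxKO 3. In the authors' TPM Hprt overlapped, with 134 TPM in DKO 5 and 137 TPM in MlxKO 3. Tymp lies 27.4 Mb from Myc on chromosome 15. Cad, Ppat, Rrm2, Shmt2 and Mthfd2 had adjusted p of 0.99, 0.99, 0.99, 0.99 and 0.92.

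The departure from additive effects of the 2 deletions on the log scale was tested directly. No member and no gene was called in edgeR (0%), DESeq2 called 0 members and limma-voom 0, and 1 member, Tymp, had an unadjusted p under 0.05 (3.5% of all genes did; log2 0.79 ± 0.28, adjusted p = 1.0, edgeR). The lower level of Rrm2, Umps or Impdh2 in DKO was not shown to exceed the sum of the differences in MlxKO and MycKO (log2 interaction -0.50 ± 0.50, -0.31 ± 0.19 and -0.09 ± 0.21, adjusted p = 1.0 for each, edgeR).

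**Figure D3:**
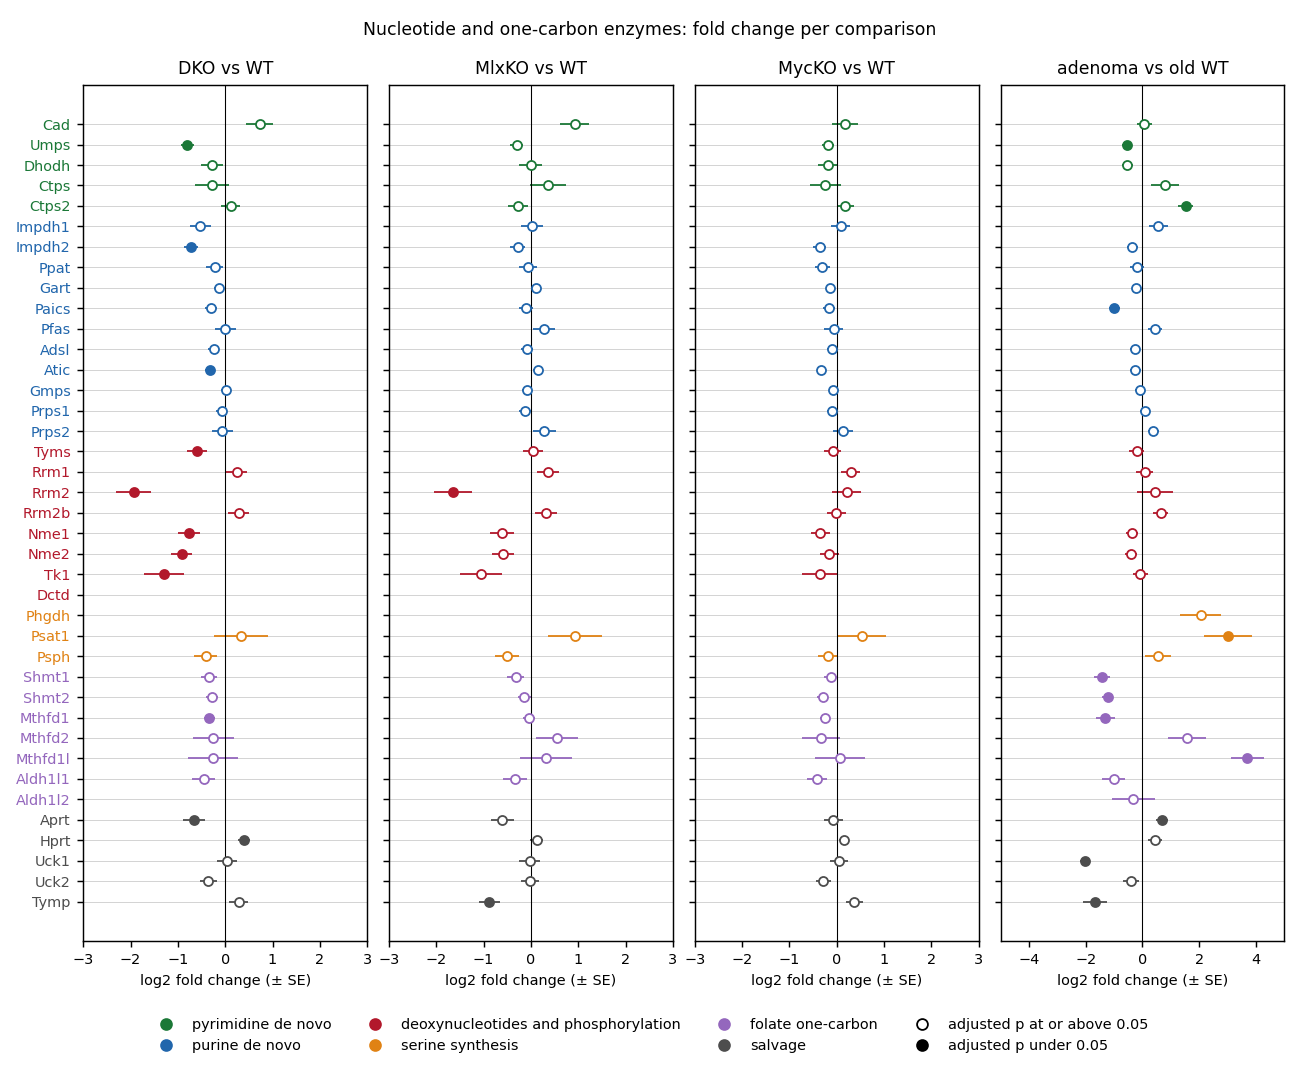
Log2 fold change with its SE for each member in 4 comparisons, ordered and coloured by role; filled points have an adjusted p under 0.05. The adenoma panel has a wider axis. Most filled points are in DKO against WT (11) and adenoma against old WT (11), with 2 in MlxKO against WT and 0 in MycKO against WT.

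Of 61 other tested genes of nucleotide and one-carbon metabolism, 18 were called in DKO against WT (5 higher, 13 lower). That is 29.5% of them, 21.3% as lower, against 18.5% of all genes, 10.9% as lower. Mthfs, which returns a stored folate to use, fell (log2 fold change -0.92 ± 0.16). The guanine deaminase Gda rose (1.09 ± 0.20), and the uridine phosphorylase Upp2 (-1.83 ± 0.35), the glycine methyltransferase Gnmt (-1.23 ± 0.25) and the folate carrier Slc46a1 (-0.76 ± 0.17) fell, at adjusted p of 0.0014 to 0.0064 for these 5 genes (edgeR). In MlxKO against WT 3 were called (1 higher, 2 lower), or 4.92%, against 1.69% of all genes. The lower ones were Mthfs (-0.77 ± 0.17, adjusted p = 0.029, edgeR) and Upp2 (-1.58 ± 0.37, adjusted p = 0.034, edgeR). In DKO against MycKO 10 were called (3 higher, 7 lower), or 16.4%, against 11.9% of all genes. Among them were Mthfs (-0.81 ± 0.16), the guanylate kinase Guk1 (-0.52 ± 0.13), Slc46a1 (-0.66 ± 0.17) and Gda (0.77 ± 0.21) at adjusted p of 0.0047 to 0.021 (edgeR). In MycKO against WT and in DKO against MlxKO 0 were called in edgeR, with 5 and 1 at an unadjusted p under 0.05 (7.67% and 6.02% of all genes were).

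In the adenomas the folate genes Shmt1, Shmt2 and Mthfd1, abundant in normal liver, were lower. The folate gene Mthfd1l and the serine synthesis gene Psat1, both scarce in normal liver, were called higher. Mthfd1l and Psat1 passed the filter on low counts through the adenomas, so the sign of their folds is no support for a direction. Of 38 members tested (all but Dctd), 11 were called, 4 higher and 7 lower, where 16.4% of all 13954 genes were called, 8.74% as higher and 7.68% as lower. That is 28.9% of the members, 18.4% as lower, and 16 had an unadjusted p under 0.05, against 33.2% of all genes. The fit kept the male label of adenoma 5, which is in doubt, in its sex term. Without that library 5 members were called. Higher in CPM in every adenoma than in every old WT liver were 5 members (Mthfd1l, Ctps2, Psat1, Aprt and Rrm2b), against 8.97% of all genes. Lower in every adenoma were 8 (Shmt1, Shmt2, Mthfd1, Aldh1l1, Uck1, Tymp, Paics and Dhodh), against 9.15% of all genes. Dhodh, not called, had 6.01 to 8.93 CPM in adenomas and 10.6 to 14.2 CPM in old WT. In the authors' TPM Dhodh overlapped, with 9.71 TPM in adenoma 1 and 7.80 TPM in old WT 4. The 27 members not called had log2 fold changes from -1.02 (Aldh1l1) to 2.05 (Phgdh). The tumors also differ from old WT liver in Cre, strain and cell makeup, none of which can be told apart from loss of Mlx here.

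Among the folate genes 4 of 7 were called. Mthfd1l, the mitochondrial enzyme that releases formate for use in the cytosol (ENSMUSG00000040675 in the 5-month table, chromosome 10, 3973118 to 4167081, plus strand), had 13.0, 12.6, 2.91, 5.91 and 6.72 CPM in the adenomas, against 1.0, 0.636, 0.295, 0.536 and 1.10 CPM in old WT. Every adenoma was above every old WT liver, and Mthfd1l rose 13.0-fold in the fit (log2 fold change 3.70 ± 0.57, adjusted p = 0.0032, edgeR). Its counts were 110 to 628 in the adenomas and 5 to 15 in old WT, so it passed the filter on low counts through the adenomas. The sign of its fold is therefore no support for a direction. Mthfd2, the mitochondrial enzyme that works just before it and is known as an enzyme of embryos and tumors, averaged 3.83 CPM in adenomas (1.81 to 9.34 CPM) and 1.56 CPM in old WT (0.827 to 2.44 CPM). Mthfd2 was not called (log2 fold change 1.57 ± 0.66, adjusted p = 0.12, edgeR), and adenoma 1 held its highest value.

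The abundant folate enzymes were lower in the adenomas. Shmt2 had 109, 117, 176, 171 and 157 CPM in the adenomas, against 290.4, 388, 346, 352 and 300.2 CPM in old WT (log2 fold change -1.23 ± 0.20, adjusted p = 0.0041, edgeR). Shmt1, its cytosolic counterpart, had 51.6, 51.3, 99.9, 113 and 91.1 CPM in the adenomas, against 160.0, 238, 249, 243 and 171 CPM in old WT (log2 fold change -1.42 ± 0.28, adjusted p = 0.0084, edgeR). Mthfd1 had 58.5, 94.6, 204, 163 and 174 CPM in the adenomas, against 286, 385, 412, 340.5 and 278 CPM in old WT (log2 fold change -1.31 ± 0.33, adjusted p = 0.023, edgeR). For these 3 genes every adenoma was below every old WT liver in CPM, where 9.15% of all genes were lower without overlap. In the authors' TPM this held for Shmt1 and Shmt2. Mthfd1 overlapped there, with 146 TPM in adenoma 3 and 140 TPM in old WT 5. Aldh1l1 was also lower without overlap in CPM, at 307 to 1331 CPM in adenomas and 1505 to 1987 CPM in old WT. It overlapped in TPM, with 1006.5 TPM in adenoma 3 and 805 TPM in old WT 5. Aldh1l1 missed the threshold (log2 fold change -1.02 ± 0.40, adjusted p = 0.10, edgeR). Aldh1l2 had 6 to 57 counts in adenomas and 5 to 15 in old WT (adjusted p = 0.81, edgeR). The call of Mthfd1 ended without old WT 2 or old WT 3 (adjusted p = 0.089 and 0.092).

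Of the 3 serine synthesis genes Psat1, the transaminase of the pathway, was called. Psat1 had 9.93, 1.97, 1.19, 0.901 and 1.53 CPM in the adenomas, against 0.287, 0.116, 0.650, 0.201 and 0.220 CPM in old WT. Every adenoma was above every old WT liver, and adenoma 1 stood far above the other adenomas (log2 fold change 3.0 ± 0.85, adjusted p = 0.036, edgeR). Psat1 had 2 to 11 counts in old WT and Phgdh 0 to 10, so both passed the filter on low counts through the adenomas, and the sign of their folds is no support for a direction. The call of Psat1 ended without adenoma 5 or any 1 of the 5 old WT livers (adjusted p = 0.055 to 0.14). Phgdh, which starts the pathway, averaged 1.22 CPM in adenomas (0.530 to 2.45 CPM) and 0.268 CPM in old WT (0 to 0.591 CPM), with a log2 fold change of 2.05 ± 0.71 (adjusted p = 0.071, edgeR). Psph, which finishes it, had an adjusted p of 0.42.

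Salvage held the member with the smallest p. Uck1, a uridine and cytidine kinase (ENSMUSG00000002550 in the 5-month table, chromosome 2, 32255002 to 32260159, minus strand), had 20.8, 20.9, 21.8, 25.6 and 18.4 CPM in the adenomas, against 92.2, 106, 69.0, 68.7 and 78.6 CPM in old WT. The adenomas lay close together and far below old WT, and Uck1 fell with a log2 fold change of -2.03 ± 0.17 (adjusted p = 0.00018, edgeR). Uck2, its relative, had a log2 fold change of -0.40 ± 0.30 (adjusted p = 0.37, edgeR). Tymp had 9.04, 23.1, 38.3, 38.1 and 34.5 CPM in the adenomas, against 168, 93.2, 88.7, 75.6 and 59.5 CPM in old WT, with no overlap (log2 fold change -1.67 ± 0.42, adjusted p = 0.023, edgeR). Sco2, which overlaps Tymp on the same strand, had a log2 fold change of -1.11 ± 0.35 (adjusted p = 0.053, edgeR). Aprt had 78.2, 44.8, 39.4, 69.0 and 39.8 CPM in the adenomas, against 25.9, 37.4, 32.5, 24.5 and 26.9 CPM in old WT, with no overlap (log2 fold change 0.69 ± 0.21, adjusted p = 0.046, edgeR). The call of Tymp ended without adenoma 5, old WT 2 or old WT 3 (adjusted p = 0.079 to 0.089), and that of Aprt without adenoma 1, 4 or 5 or any 1 of the 5 old WT livers (adjusted p = 0.052 to 0.15).

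De novo synthesis held 3 calls. Ctps2, a CTP synthase, had 36.2, 20.7, 33.7, 19.2 and 33.4 CPM in the adenomas, against 7.10, 12.8, 11.9, 8.91 and 6.98 CPM in old WT, with no overlap (log2 fold change 1.52 ± 0.25, adjusted p = 0.0045, edgeR). Paics had 107, 117, 141, 159 and 117 CPM in the adenomas, against 204, 222, 278, 244 and 299 CPM in old WT. These CPM values also did not overlap (log2 fold change -0.99 ± 0.19, adjusted p = 0.0079, edgeR). In the authors' TPM Paics overlapped, with 142 TPM in adenoma 4 and 135 TPM in old WT 1. Umps averaged 35.4 CPM in adenomas (26.7 to 46.0 CPM) and 51.4 CPM in old WT (44.4 to 57.1 CPM). Its log2 fold change was -0.56 ± 0.17 (adjusted p = 0.049, edgeR). In the authors' TPM Umps showed no such gap, at 19.9 to 31.7 TPM in adenomas and 21.2 to 30.6 TPM in old WT. Cad averaged 18.3 CPM in adenomas (12.6 to 29.4 CPM) and 17.4 CPM in old WT (14.7 to 20.8 CPM, adjusted p = 0.90), Ppat 17.4 CPM (15.3 to 18.8) and 22.4 CPM (14.0 to 35.2, adjusted p = 0.63), and Impdh2 33.3 CPM (22.9 to 41.2) and 42.0 CPM (34.7 to 51.3, adjusted p = 0.22), in adenomas and in old WT. The call of Ctps2 ended without adenoma 5 (adjusted p = 0.051), that of Paics without adenoma 5 or old WT 3 (adjusted p = 0.050 and 0.051), and that of Umps without any 1 library other than adenoma 3 (adjusted p = 0.058 to 0.18).

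**Figure D4:**
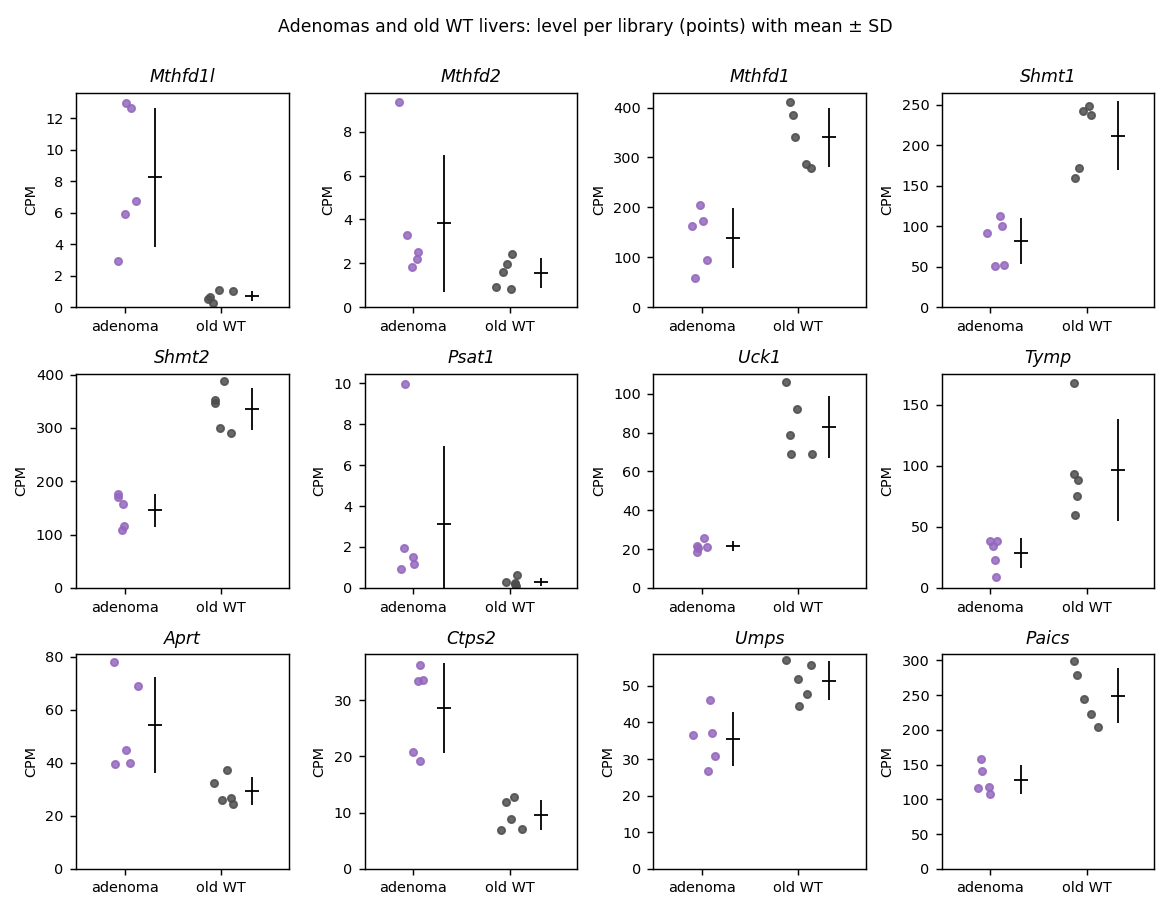
CPM of 12 genes in each adenoma (left) and old WT liver (right), with the mean and SD beside the points. Uck1 lies at 18.4 to 25.6 CPM in the adenomas and 68.7 to 106 CPM in old WT, and Mthfd1l at 2.91 to 13.0 CPM and 0.295 to 1.10 CPM.

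No deoxynucleotide or phosphorylation enzyme was called, 0 of 7 in edgeR, with 1 (Rrm2b, log2 fold change 0.65 ± 0.27, adjusted p = 0.12) at an unadjusted p under 0.05, while 3 of 8 markers of cycling cells were called higher. These 3 were Mki67, Aurkb and Birc5, 1 of the 8 had a fold below 0, and the summed level of the 8 overlapped, at 20.3 to 99.9 CPM in adenomas and 30.0 to 54.3 CPM in old WT. Mki67 had 2.20 to 19.2 CPM in the adenomas and 1.22 to 3.60 CPM in old WT (log2 fold change 2.28 ± 0.55, adjusted p = 0.020, edgeR). Rrm2 averaged 5.93 CPM in adenomas (0.848 to 8.69 CPM) and 5.78 CPM in old WT (2.26 to 10.1 CPM), with a log2 fold change of 0.44 ± 0.63 (adjusted p = 0.67, edgeR). Tyms averaged 6.41 CPM in adenomas (4.20 to 8.19 CPM) and 7.89 CPM in old WT (6.48 to 8.52 CPM), with a log2 fold change of -0.21 ± 0.26 (adjusted p = 0.62, edgeR). Tk1 averaged 32.5 CPM in adenomas (17.9 to 46.0 CPM) and 31.2 CPM in old WT (23.8 to 42.9 CPM), with a log2 fold change of -0.08 ± 0.26 (adjusted p = 0.86, edgeR). The difference between the markers and these enzymes was not itself tested.

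**Figure D5:**
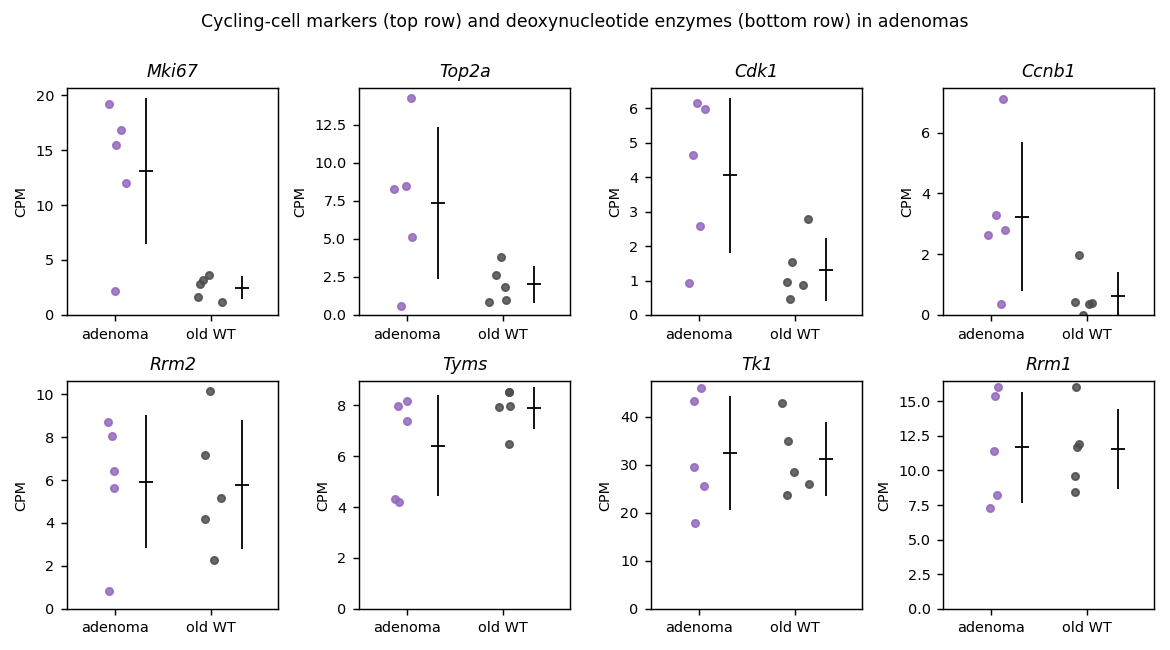
CPM of 4 cycling-cell markers (top) and 4 deoxynucleotide enzymes (bottom) in each adenoma (left) and old WT liver (right), with the mean and SD. Mki67 averages 13.1 CPM in the adenomas and 2.49 CPM in old WT, and Rrm2 5.93 and 5.78 CPM.

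Uck1, Shmt1 and Shmt2 were called under each of 17 alternatives. So was Mthfd1l, which passed the filter on low counts through the adenomas, so its repeated calls are no support for a direction. The number of members called was 5 without adenoma 5 or without old WT 3 and 6 without old WT 2. Cell type markers moved too. The 6 hepatocyte markers summed to 20400 to 28900 CPM in adenomas and 90900 to 139000 CPM in old WT, with 1 of 6 (Alb) called lower. The 6 cholangiocyte markers summed to 55.6 to 633 CPM in adenomas and 48.0 to 62.1 CPM in old WT, with 2 of 6 called higher, and the 6 Kupffer cell and macrophage markers to 82.9 to 1190 CPM and 107 to 332 CPM, with 1 of 6 called higher. The 6 T and NK cell markers summed to 5.73 to 27.8 CPM in adenomas and 2.13 to 3.96 CPM in old WT, with 2 of 6 called higher, and 1 of 6 stellate cell markers was called higher. No marker was at 0 throughout a group, and the part of these cells in the result was not tested.

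Of the 61 other pathway genes 7 were called in the adenomas, 2 higher and 5 lower. That is 11.5% of them, below the 16.4% of all genes that were called. Mthfd2l, a relative of Mthfd2, rose (log2 fold change 1.96 ± 0.44), as did the nucleotide kinase Cmpk2 (0.91 ± 0.24). Fpgs, which adds glutamates to folate, fell (-1.22 ± 0.24), with the dimethylglycine dehydrogenase Dmgdh (-1.63 ± 0.38) and the pyrimidine breakdown enzyme Dpys (-1.16 ± 0.28), at adjusted p of 0.0085 to 0.028 for these 5 genes (edgeR).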

How the data were processed

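The authors deposited, per age set, a table with total counts of reads per gene and library, and their own TPM for the same columns; the submitters' processing notes name the build GRCm38.p6. Aligner, counting tool and strandedness: not given in the sources used here. The labels' protocols name oligo(dT) enrichment and random hexamers and no molecular identifiers. The other 42 and 20 normalized columns were not used.

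Deposited counts entered edgeR 4.0.16 unchanged (R 4.3.3): filterByExpr (minimum count 10), TMM, group means plus a sex term, glmQLFit and glmQLFTest, each age set on its own (13397 and 13954 genes), Benjamini-Hochberg adjustment over all genes. SE is the log2 fold change divided by the root of F. Fold changes come from the fit and can differ from ratios of printed means. Overlap between groups was judged in CPM and can differ in the authors' TPM. Biological coefficients of variation (common dispersion) came to 0.261 for 5-month and 0.385 for old libraries. The steps were tested on simulated data. No pair of replicates was identical within sampling noise: the closest, MlxKO 3 and 4, had a chi-square of 16.1 per gene. Alternatives used DESeq2 1.42.0 and limma-voom (limma 3.58.1), and others are named below.

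Members, lists and tests were chosen with earlier results of these data known, among them WT 2, WT 5 and MycKO 5 and the sex label of adenoma 5. All 39 members could be named. Values per library were given for up to 10 called members a comparison, by adjusted p. Cad, Ppat, Impdh2, Tyms, Rrm2, Phgdh, Shmt2 and Mthfd2 were described in every comparison where tested. Up to 6 other pathway genes a comparison were to be named, of which some are not reported here. Replicates are numbered in accession order and the numbers pair nothing.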

Additional observations from a re-analysis of the deposited data

Results flagged for a closer look

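Among 134 sets of values (23 genes, groups of 4 to 6 libraries), the highest or lowest library stood apart from the rest of its group by Dixon's test in 12, where chance gives about 1 in 20, or 6.7. Adenoma 1 held 3 of them: Nme1 at 63.5 CPM, Psat1 at 9.93 CPM and Mthfd2 at 9.34 CPM, each the highest adenoma. MycKO 5 held 2, Tk1 at 26.1 CPM and Shmt2 at 192 CPM, both the highest of 6.

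Mthfd1l stood apart in DKO 4, at 2.99 CPM, and in MlxKO 1, at 8.81 CPM, both the highest of their group. In MlxKO, Mthfd1 was lowest in MlxKO 2, at 169 CPM, and Shmt2 was lowest in MlxKO 3, at 162 CPM. Ppat was highest in DKO 2, at 16.0 CPM, and Mthfd2 was highest in WT 6, at 1.46 CPM. Tyms was lowest in old WT 2, at 6.48 CPM.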

How the results depend on the processing

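Of 502 repeats of the 27 calls on single members, 357 kept the call, 145 lost it and 0 turned the direction. In DKO against WT 11 members were called, and 5 in a fit of those groups alone, 6 in males alone, 7 with no filter on low counts and 6 without WT 2, WT 5 and MycKO 5. In DKO against MycKO 3 were called, and 6 with no sex term. In DKO against MlxKO 0 were called, and 2 with DESeq2 and 1 each with limma-voom, in a fit of those groups alone, with no filter, and without WT 2, WT 5 and MycKO 5. In MlxKO against WT 2 were called, and 0 in a fit of those groups alone and in males alone, and 1 each with limma-voom, with no sex term and without WT 2, WT 5 and MycKO 5. In adenoma against old WT 11 were called, and 5 without adenoma 5, whose sex label is in doubt; halving the adenoma counts left 11. The cause was not tested.

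Leaving out each library in turn gave 4 to 11 calls in DKO against WT, 0 to 5 in MlxKO against WT, 2 to 4 in DKO against MycKO, 5 to 11 in adenoma against old WT, and 0 to 0 in the other 3 tests. Summing Nme1, Nme2 and Gm20390, chosen after seeing the data, gave 9 calls in DKO against WT and 2 in DKO against MycKO. No paired analysis was possible because the labels give no replicate numbers shared between groups. Depth limits Phgdh, Aldh1l2 and Dctd at 5 months, which had too few counts to be tested.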
